A study of Mus musculus with 12 samples.

Results

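The fatty acid oxidation genes followed here were 35 genes chosen by function, with earlier results of these data already known. These are the genes of acyl-CoA synthetases, carnitine transferases, the enzymes of mitochondrial and peroxisomal β-oxidation, electron transfer proteins, thioesterases and the kinase Pdk4. They were found by symbol among the 55487 genes of a raw count table, and 31 of the 35 had enough reads to be among the 12897 genes tested. The cells were im_TEC, a conditionally immortalised mouse line of kidney tubule epithelium. All 4 groups carried SV40 large T antigen and were kept at 37 °C without interferon γ for 7 days before seeding, following growth at 33 °C in the presence of that cytokine (10 ng/mL), and all were transduced and taken through puromycin selection. The mock group carried a mock construct. The group labelled Nnmt-OE carried an expression construct for Nnmt, the enzyme that methylates nicotinamide with S-adenosylmethionine. Neither its promoter nor the number of clones is stated in the sources used here. Mock with TGFβ and Nnmt-OE with TGFβ were the same 2 kinds of cell given transforming growth factor β, a cytokine widely used to model fibrosis in cultured cells, for 48 h at 10 ng/mL. Each group had 3 libraries. Whether the 3 were separate cultures is not stated, and p-values then reflect only how these libraries differed from one another, which may be technical.

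Fatty acid oxidation begins when a synthetase joins a fatty acid to coenzyme A and carnitine transferases carry the acyl group into the mitochondrion. There a repeating spiral of dehydrogenation, hydration, a further dehydrogenation and thiolysis cuts the chain down to acetyl-CoA, and electron transfer flavoprotein passes the electrons on to the respiratory chain. Peroxisomes shorten very long and branched chains with their own set of enzymes. Tubular epithelium, the proximal tubule above all, is known for its reliance on this pathway, and PPARα and the coactivator PGC-1α (Ppargc1a) are its textbook regulators.

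Libraries held 4733846 to 7247413 reads assigned to genes. They were made with a 3' tag method, which reads about 1 tag near the end of each transcript, so CPM, which are counts scaled to the size of the library, carry no correction for transcript length. Molecular identifiers are not mentioned, the counts are therefore reads, and limits given for a count of 0 cover counting error only. Nnmt, the gene of the construct, was at 24.7, 17.8 and 18.3 CPM in mock and at 24.5, 28.5 and 22.9 CPM in the libraries labelled Nnmt-OE, a 1.25-fold difference that did not pass the test (adjusted p = 0.897 by edgeR's quasi-likelihood test, with p-values adjusted over all genes tested by the method of Benjamini and Hochberg), and with TGFβ the ratio was 0.909 (adjusted p = 0.998). The characteristics spell the genotype of these libraries Nmt-OE, while the titles say Nnmt-OE. The label Nnmt-OE is not borne out by these counts, and whether 3' tags from the construct are counted at all was not tested. The library codes of mock and Nnmt-OE libraries, and of libraries with and without TGFβ within each, run in blocks, so handling and group cannot be told apart. An earlier account of these data named 3 libraries as standing apart from the rest, replicate 1 of mock and replicate 3 of each TGFβ group, and results are also given without them. As a check of the TGFβ treatment, 7 of 8 genes listed for its response rose on average over both kinds of cell, among them Tagln by 1.44 and Acta2 by 2.18 on the log2 scale. Of the defining epithelial genes, Epcam and Cdh1 had 0 reads in all 12 libraries, while the renal epithelial genes Pax2, Pax8 and Cdh16 were present. Of 18 proximal tubule markers, 6 had enough reads to be tested and another 6, such as Slc5a12 and Hnf4a, had 0 reads in every library.

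Of 4 promoters printed here, the first pair is shown because TGFβ lowered Acot2 while its neighbour and paralog Acot1 had almost no reads, and the second because Hadha and Hadhb, which encode the subunits of 1 enzyme, start back to back. All are RefSeq windows of 300 bases on GRCm38.p6, from 250 before the start site to 50 after it, written 5' to 3' on the gene's own strand. In Hadha and Hadhb, capitals mark the 228 bases that both windows share, which read as reverse complements of each other.
Acot2, chr12:83987611-83987910, plus strand: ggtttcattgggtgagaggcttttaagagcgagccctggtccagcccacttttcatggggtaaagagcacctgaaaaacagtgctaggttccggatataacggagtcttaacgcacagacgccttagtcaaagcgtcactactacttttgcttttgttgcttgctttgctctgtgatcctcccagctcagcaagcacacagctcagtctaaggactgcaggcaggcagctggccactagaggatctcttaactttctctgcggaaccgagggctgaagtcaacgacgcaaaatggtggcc
Acot1, chr12:84009252-84009551, plus strand: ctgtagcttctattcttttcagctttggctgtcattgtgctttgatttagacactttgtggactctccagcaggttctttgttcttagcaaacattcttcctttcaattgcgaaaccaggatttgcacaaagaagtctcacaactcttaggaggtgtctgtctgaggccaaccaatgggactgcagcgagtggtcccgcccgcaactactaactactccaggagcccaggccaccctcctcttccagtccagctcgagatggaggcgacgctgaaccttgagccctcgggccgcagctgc
Hadha, chr5:30154931-30155230, minus strand: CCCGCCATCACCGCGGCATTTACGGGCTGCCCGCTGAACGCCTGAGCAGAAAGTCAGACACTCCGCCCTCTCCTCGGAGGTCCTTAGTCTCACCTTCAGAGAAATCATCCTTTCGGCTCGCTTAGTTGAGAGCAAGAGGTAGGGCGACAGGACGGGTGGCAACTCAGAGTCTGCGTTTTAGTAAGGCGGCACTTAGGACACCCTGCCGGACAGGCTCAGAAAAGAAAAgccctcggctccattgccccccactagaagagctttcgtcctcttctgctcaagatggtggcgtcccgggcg
Hadhb, chr5:30155003-30155302, plus strand: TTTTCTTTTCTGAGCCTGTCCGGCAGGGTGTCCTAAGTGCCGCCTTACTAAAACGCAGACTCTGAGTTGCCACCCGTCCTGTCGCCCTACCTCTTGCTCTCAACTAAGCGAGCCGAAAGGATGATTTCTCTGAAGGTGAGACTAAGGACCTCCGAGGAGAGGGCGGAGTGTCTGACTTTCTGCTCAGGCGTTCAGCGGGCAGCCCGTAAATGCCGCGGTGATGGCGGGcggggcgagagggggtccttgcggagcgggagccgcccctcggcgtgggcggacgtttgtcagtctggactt

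The start sites of Hadha and Hadhb lay 273 bases apart on opposite strands, so both genes are read outward from 1 short stretch. Acot1 and Acot2 started 21.6 kb apart on the same strand. Their promoter windows were identical at 155 of the 261 bases aligned without a gap (59.4%). Their whole longest coding transcripts (GENCODE M21) were identical at 1656 of 2004 such bases (82.6%). The last 300 bases, where 3' tags fall, were identical at 150 of 267 (56.2%), with a longest shared run of 8 bases. Motifs were then searched on both strands of the promoters of the 29 members that had an entry: the PPAR element AGGTCANAGGTCA with at most 1 mismatch in its 12 fixed letters, the ERR element TCAAGGTCA and the SMAD palindrome GTCTAGAC. The AGGTCA half-site is common to the first 2 of them. None of the 30 member promoters held any of the 3, against 0.554, 0.423 and 0.213% of all 32851 promoters. That says only that these letters are not in these windows.

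Of the 35 genes, 4 had too few reads to test. Decr1, the mitochondrial dienoyl-CoA reductase, and Pdk4, a kinase that inhibits pyruvate dehydrogenase, had 0 reads in 71112817. That allows up to 0.0422 CPM over all libraries or 0.414 to 0.634 CPM in a single one. Ehhadh, the peroxisomal bifunctional enzyme of straight chains, had 2 reads, both in mock replicate 3, and the cytosolic thioesterase gene Acot1 had 2 reads, both in mock replicate 2. No group difference was detectable for these 4 at this depth. A low count in this table does not show that a transcript is absent: Gapdh, a gene used by every cell, had 2 to 17 reads a library, against 32707 to 58979 for Actb. Both were looked up after the values of Decr1 were seen. The genes beside Decr1, Nbn and Osgin2, had 74 to 168 and 34 to 84 reads a library.

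Among the 31 tested genes the mean over 12 libraries ran from 13 CPM for Cpt2 to 157 CPM for Hadh. Hadh, Hadha, Acadl, Acat1, Acsl5 and Acads each averaged above 100 CPM. For several of them reads could not be tied to 1 locus with certainty. The last 300 bases of Acaa1a and Acaa1b were 95.8% identical over 286 bases, those of Eci2 and Eci3 95.5% over 290, and Hadhb matched the pseudogene Gm13910 over 166 bases at 99.4%. Acaa1b had 0 to 11 reads a library, Gm13910 0 to 7 and Eci3 none. Crat, Acadvl and Hadha end in an overlap with Dolpp1, Dvl2 and Garem2 on the opposite strand, and whether the counting used strand is not stated in the sources used here. All of the last 300 bases of Etfb also match the annotated gene Gm45233, which had 0 reads.

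TGFβ lowered 2 of the 31 tested genes, the thioesterase gene Acot2 and the thiolase gene Acaa2, on average over mock and Nnmt-OE cells, and raised 0. Across all genes tested, 2.6% fell and 2.48% rose in this comparison. Acot2 was 1.51-fold lower and Acaa2 1.43-fold lower, and most of the other members leaned the same way by less. Of the 31, 26 had a negative log2 fold change, with a median of -0.19. Of all genes tested, 50.8% were negative, with a median of -0.005. The lean was not confined to the 35. Of 21 tested further acyl-CoA enzymes of the mitochondrion, 14 were negative and 7 positive, with a median of -0.166. Of 27 other peroxisomal genes, 15 were negative and 12 positive, with a median of -0.097. At an unadjusted p under 0.05, 10 members were lower (8.23% of all genes tested) and 1, Cpt2, was higher (8.34%). These are bulk libraries, so less RNA per cell and fewer cells that express a gene cannot be told apart. Without the 3 libraries that stand apart the same 2 genes passed, with 8 members positive, 23 negative and a median of -0.149. The summed level of the 31 tested genes was 1808 to 1986 CPM in mock and 1852 to 1904 CPM in Nnmt-OE. With TGFβ it was 1716 to 1809 CPM in mock and 1672 to 1722 CPM in Nnmt-OE.

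**Figure D1:**
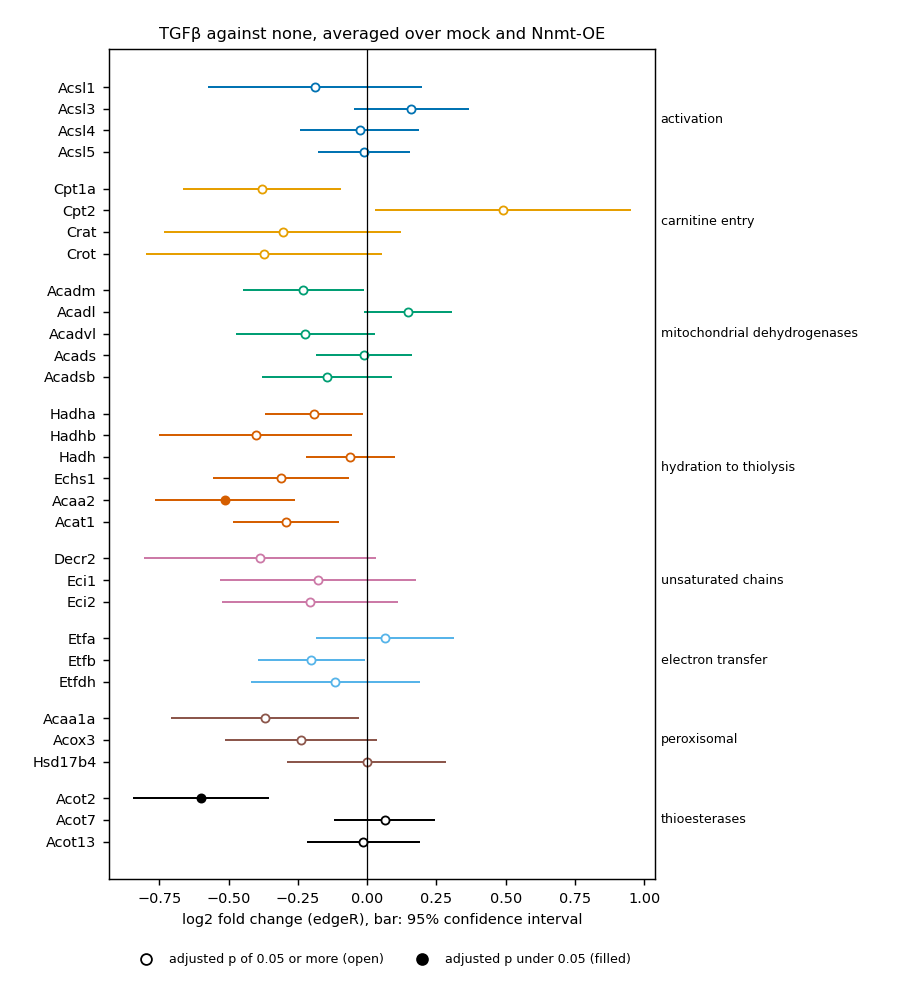
Change with TGFβ of the 31 tested fatty acid oxidation genes, averaged over mock and Nnmt-OE cells. Points are edgeR log2 fold changes with TGFβ against none, bars are 95% confidence intervals, colours are functional groups, and filled points have an adjusted p under 0.05. Acot2 at -0.60 and Acaa2 at -0.51 are the 2 filled points, and 26 of 31 points lie left of 0.

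Other measures moved with TGFβ as well. The share of reads from ribosomal protein genes was 0.987 to 1.06% in mock and 0.948 to 1.08% in Nnmt-OE, and with TGFβ 1.12 to 1.26% and 1.14 to 1.17%. The mitochondrially encoded share was 6.13 to 7.31% in mock and 6.45 to 6.62% in mock with TGFβ, which overlapped, and 6.63 to 6.9% in Nnmt-OE and 6.05 to 6.42% in Nnmt-OE with TGFβ, which did not. The 18 proximal tubule markers summed to 1142 to 1379 CPM in mock and 1414 to 1444 CPM in Nnmt-OE. With TGFβ they summed to 896.2 to 961.2 CPM and 978 to 1039 CPM, mostly from the water channel gene Aqp1. Aqp1 fell by 0.60 on the log2 scale (adjusted p = 8.98e-10) and was the only 1 of the 6 tested to pass. Of the 6, 4 were negative and 2 positive. Gatm went up, from 13.4 ± 2.75 to 19.2 ± 4.17 CPM (SD, n = 6 each), without passing. The 10 general epithelial markers summed to 759.3 to 865.3 CPM in mock and 751.3 to 808.2 CPM in Nnmt-OE, and with TGFβ to 718.3 to 797.4 CPM and 728.7 to 835.8 CPM. Of the 5 tested among them Cdh16, a kidney cadherin, fell by 0.63 (adjusted p = 9.94e-06) and the keratin gene Krt8 rose by 0.38 (adjusted p = 0.00766) on the log2 scale. The 8 fibroblast markers summed to 3.37 to 6.54 CPM in mock and 1.62 to 8.04 CPM in Nnmt-OE, and with TGFβ to 7.95 to 13.7 CPM and 10.7 to 16.1 CPM. Col1a1 and Col1a2 passed the test among them, and Col1a1 is also among the genes listed for the TGFβ response. Pdgfra, Pdgfrb and Dcn had 4, 25 and 15 reads over all libraries, and Lum, Col3a1 and Dpt had 0 reads. The 8 leukocyte markers summed to 55.3 to 96.4 CPM over all libraries, mostly from Csf1r at 51.2 to 88.4 CPM. Ptprc had 2 reads in all and Adgre1, Itgam, Cd3e and Cd79a had 0. Neither tested marker, Csf1r or Cd68, passed. Markers of endothelium and of other nephron segments were at or near 0. The part of any of these in the lower levels of Acot2, Acaa2 and the other members was not tested.

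The enzymes of activation showed small differences. Acsl1, Acsl3, Acsl4 and Acsl5 are the long-chain acyl-CoA synthetases, which trap fatty acids in the cell as acyl-CoA. Their log2 fold changes with TGFβ, averaged over both kinds of cell, were -0.19, 0.16, -0.03 and -0.01, and none passed the test. For Acsl5, the most abundant of the 4 at 113 CPM, the 95% interval of the change ran from -0.17 to 0.15.

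Carnitine entry held the members that leaned furthest apart. Cpt1a encodes the outer membrane carnitine palmitoyltransferase that controls the rate of entry, and Cpt2 its partner at the inner membrane. Cpt1a stood at 31.3, 43.1 and 39.7 CPM in mock and 26.5, 23.6 and 29.5 CPM in mock with TGFβ. It stood at 27.3, 40.6 and 41.7 CPM in Nnmt-OE and 30.6, 35 and 27.5 CPM in Nnmt-OE with TGFβ. In mock cells every library with TGFβ lay below every library without it, whereas in Nnmt-OE cells the first untreated library lay below all 3 with TGFβ. The averaged change of Cpt1a was -0.38 ± 0.14 (SE) on the log2 scale and did not pass the test (adjusted p = 0.119, unadjusted p = 0.00967). Cpt2 averaged 10.8 ± 2.59 CPM (SD, n = 6) without and 15.3 ± 4.91 CPM (SD, n = 6) with TGFβ. Its change of 0.49 did not pass either (adjusted p = 0.259), and it was 0.25 without the 3 libraries that stand apart, of which replicate 3 of mock and of Nnmt-OE with TGFβ had its highest levels, 20.3 and 21.5 CPM. Crat and Crot, which move acetyl groups and the shortened chains from peroxisomes onto carnitine, had values of -0.31 and -0.37 that did not pass (adjusted p = 0.51 and 0.383).

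The mitochondrial acyl-CoA dehydrogenases take the first electrons from the chain, each over its own range of chain length, and none of the 5 passed the test. Acadm, for medium chains, averaged 70.8 ± 8.89 CPM (SD, n = 6) without and 60.4 ± 8.2 CPM (SD, n = 6) with TGFβ, a log2 change of -0.23 (adjusted p = 0.254). Acadvl, for very long chains, had a change of -0.22 and Acadsb, for branched short chains, -0.14. Acads, for short chains, was flat at -0.01, with 109 ± 8.89 CPM without and 108 ± 9.13 CPM with TGFβ (SD, n = 6 each). Acadl, for long chains, leaned the other way at 0.15 (adjusted p = 0.342), and in mock cells its unadjusted p was 0.0332.

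Hydration, the second dehydrogenation and thiolysis formed the group whose 6 members were all negative, both in mock cells and in Nnmt-OE cells, where 50.3% of all genes tested were negative in each. The median of the 6 averaged changes was -0.30, 1 passed the test (2.6% of all genes tested were lower) and 5 had an unadjusted p under 0.05 (8.23% lower). Acaa2 encodes the mitochondrial thiolase that releases acetyl-CoA from the chain. It was at 45.8, 50.3 and 51.6 CPM in mock and 36, 27.7 and 42.6 CPM in mock with TGFβ. In Nnmt-OE it was at 43.6, 46.6 and 55.6 CPM, and with TGFβ at 37, 31.7 and 31.1 CPM. All 6 libraries with TGFβ lay below all 6 without. The mean fell from 48.9 ± 4.4 to 34.3 ± 5.29 CPM (SD, n = 6 each), a log2 change of -0.51 ± 0.12 (SE, adjusted p = 0.00737). Neither kind of cell alone reached the threshold for Acaa2 (-0.48 in mock, adjusted p = 0.199, and -0.55 in Nnmt-OE, adjusted p = 0.122), and the averaged call held in all 20 alternative settings, with adjusted p from 0.00237 to 0.0445.

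Acat1, the thiolase that splits or forms acetoacetyl-CoA, came closest to the threshold after these. Its levels were 108, 118 and 121 CPM in mock and 119, 109 and 81.7 CPM in mock with TGFβ, groups that overlapped. They were 138, 158 and 111 CPM in Nnmt-OE and 107, 105 and 89.2 CPM with TGFβ, where every treated library lay below every untreated one. The averaged change was -0.29 ± 0.09 (SE, adjusted p = 0.0566), and it passed in 5 of the 20 alternative settings, among them without mock replicate 1 (adjusted p = 0.0393), without mock with TGFβ replicate 1 (adjusted p = 0.0291) and without Nnmt-OE replicate 3 (adjusted p = 0.0237). Without the 3 libraries that stand apart it was -0.21 (adjusted p = 0.196). Echs1, the hydratase of short chains, had a change of -0.31 (adjusted p = 0.141).

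Hadha and Hadhb encode the α and β subunits of the mitochondrial trifunctional protein, which performs these last steps on long chains. Hadha stood at 212, 142 and 156 CPM in mock and 141, 118 and 155 CPM in mock with TGFβ. It stood at 153, 152 and 141 CPM in Nnmt-OE and 138, 141 and 145 CPM in Nnmt-OE with TGFβ, so that the groups overlapped in both kinds of cell. Its averaged change was -0.19 ± 0.09 (SE, adjusted p = 0.239), and without mock replicate 1, its highest library, it was -0.09. Hadhb was at 24, 19.5 and 19 CPM in mock and 14, 14.3 and 17.1 CPM in mock with TGFβ. It was at 20, 19.4 and 22.3 CPM in Nnmt-OE and 13.7, 15.6 and 19.4 CPM in Nnmt-OE with TGFβ. For Hadhb 5 of the 6 treated libraries lay below every untreated one, and its change was -0.40 ± 0.17 (SE, adjusted p = 0.2). The 95% intervals of the 2 changes, -0.36 to -0.02 for Hadha and -0.75 to -0.06 for Hadhb, overlap, and their difference was not tested. Hadh, the dehydrogenase of shorter chains, was at -0.06.

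**Figure D2:**
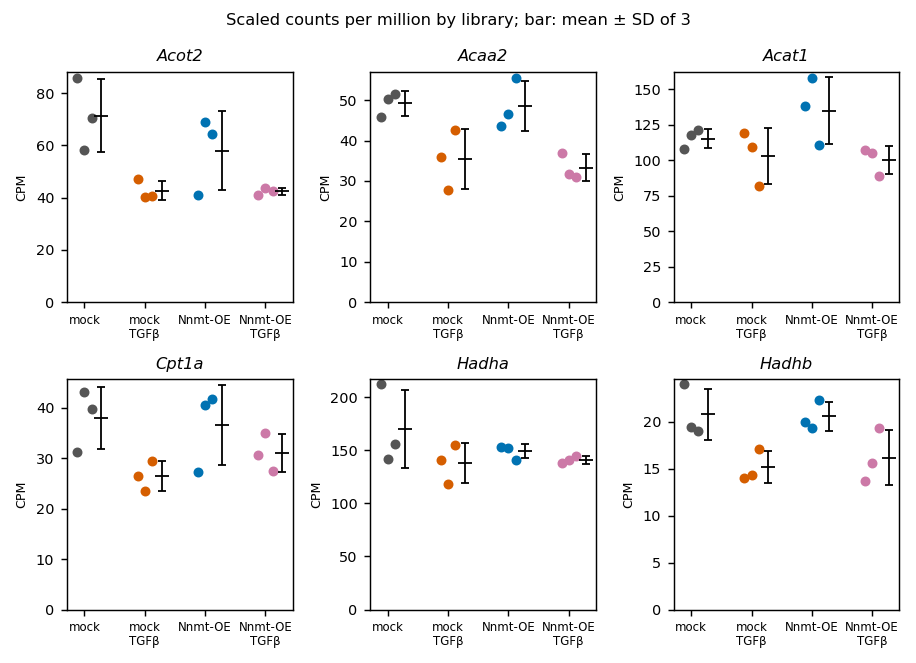
Levels of Acot2, Acaa2, Acat1, Cpt1a, Hadha and Hadhb in every library. The vertical axis of each panel is TMM-scaled CPM from 0, points are single libraries in replicate order within each of the 4 groups, and the bar beside them is the mean ± SD of 3. For Acaa2 all 6 libraries with TGFβ sit below all 6 without, and for Acot2 the 6 libraries with TGFβ sit between 40.4 and 47.1 CPM.

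The remaining steps showed no call outside the thioesterases. Decr2, Eci1 and Eci2, which rearrange the double bonds of unsaturated chains, had averaged changes of -0.39, -0.18 and -0.21. Etfa and Etfb, the subunits of electron transfer flavoprotein, were at 0.06 and -0.20, and Etfdh, which hands the electrons to ubiquinone, at -0.12. Etfb had an unadjusted p of 0.0386. In the peroxisome the thiolase gene Acaa1a was at -0.37 (adjusted p = 0.236), the oxidase gene Acox3 of branched chains at -0.24 and the multifunctional enzyme gene Hsd17b4 at 0.00. Several of these values depended on the 3 libraries that stand apart. Without them Decr2 was at -0.17, Etfb at -0.05 and Acox3 at -0.12, all smaller in size. Etfa was at -0.09, with its sign changed, and Etfdh at -0.29, larger in size. None of these passed.

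Acot2, a mitochondrial thioesterase that frees fatty acids from coenzyme A within the matrix, had the lowest adjusted p of all members. It was at 85.8, 58.1 and 70.4 CPM in mock and 47.1, 40.4 and 40.7 CPM in mock with TGFβ. In Nnmt-OE it was at 40.9, 68.8 and 64.4 CPM, and with TGFβ at 41, 43.6 and 42.7 CPM. The groups did not overlap in mock cells, while Nnmt-OE replicate 1 was level with the lowest of the Nnmt-OE libraries with TGFβ. The averaged change was -0.60 ± 0.12 (SE, adjusted p = 0.00107) and passed in all 20 alternative settings, with adjusted p from 2.18e-05 to 0.00816. The other thioesterases tested, Acot7 and Acot13, had changes of 0.06 and -0.01. For Acot13 the 95% interval ran from -0.22 to 0.19.

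In mock cells alone, 1 of 31 members passed, Acot2 at -0.74 ± 0.17 (SE, adjusted p = 0.0113), and 0.76% of all genes tested fell in that comparison. The call on Acot2 in mock cells was lost without mock replicate 1 (-0.59, adjusted p = 0.107), without mock with TGFβ replicate 2 (-0.70, adjusted p = 0.0865) and without the 3 libraries that stand apart (-0.56, adjusted p = 0.156). In Nnmt-OE cells 0 of 31 passed by edgeR, DESeq2 or limma-voom, where 1.4% of all genes tested passed by edgeR, and 6 members had an unadjusted p under 0.05 against 11.1% of all genes. Those 6 were Crat, Echs1, Acaa2, Acat1, Eci2 and Acot2, all lower with TGFβ, with log2 fold changes from -0.62 to -0.39. The lowest adjusted p in Nnmt-OE cells was 0.0957, for Acat1 at -0.43, which passed in 4 of 21 alternative settings. The medians over the members were -0.15 in mock and -0.19 in Nnmt-OE cells, beside -0.002 over all genes in each.

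These 2 comparisons share no library. Of the 31 members 20 (64.5%) were lower with TGFβ in both kinds of cell, 5 (16.1%) were higher in both and 6 went opposite ways. Over all genes tested 30.8% were lower in both and 30.3% higher in both. Across the 31 genes the changes in the 2 kinds of cell correlated with r = 0.55 and rho = 0.44, against 0.23 and 0.26 across all genes. That is a description across genes, which are not independent replicates. The 5 that were higher in both were Cpt2, Acadl, Acsl3, Acot7 and Etfa, all short of the threshold.

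**Figure D3:**
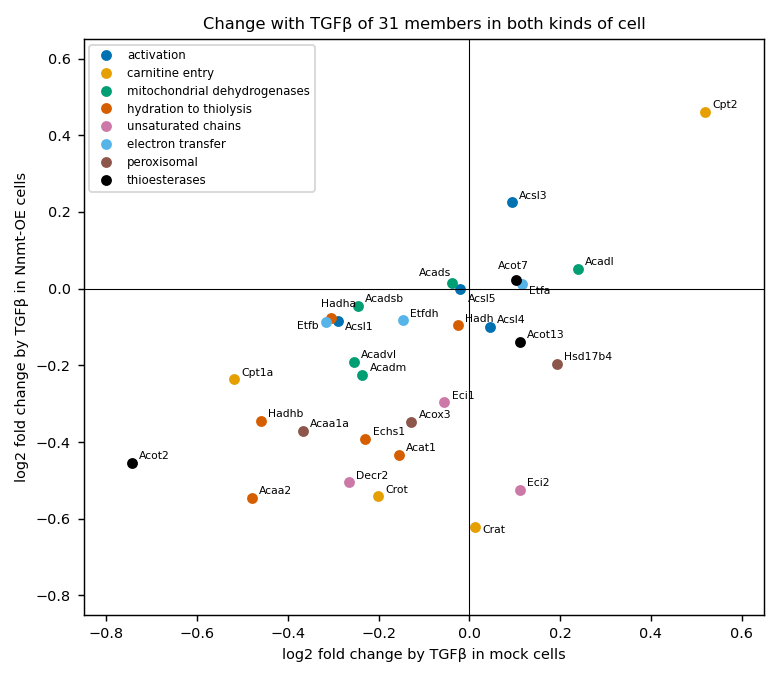
Change with TGFβ in mock cells (horizontal axis) and in Nnmt-OE cells (vertical axis), both as edgeR log2 fold changes, for the 31 tested genes, coloured by functional group. The lower left field holds 20 genes with Acot2, Acaa2 and Hadhb among them, and the upper right field holds 5, of which Cpt2 lies farthest out.

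Whether the response to TGFβ differed between the 2 kinds of cell was tested as an interaction, and 0 of 31 members passed, as did 0% of all genes tested by edgeR, with 0 also by DESeq2 and limma-voom. The lowest unadjusted p was 0.0467, for Eci2, and 3.88% of all genes tested had an unadjusted p under 0.05. Eci2 stood at 33, 38.6 and 35.3 CPM in mock and 30.7, 31.4 and 53.9 CPM in mock with TGFβ. It stood at 50.7, 38.7 and 42.6 CPM in Nnmt-OE and 31.7, 40 and 19.6 CPM in Nnmt-OE with TGFβ. Its highest and lowest levels, 53.9 and 19.6 CPM, were thus in 2 of the libraries that stand apart. Its interaction was -0.64 ± 0.31 (SE, adjusted p = 0.999). For Acot2 the interaction was 0.29 with a 95% interval from -0.20 to 0.77, and for Acaa2 -0.07 with an interval from -0.57 to 0.43.

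The construct gave no call among these genes. Without TGFβ, 0 of 31 members differed between Nnmt-OE and mock, beside 0.0388% of all genes tested, and the median log2 fold change was 0.00 with 16 members positive and 15 negative. At an unadjusted p under 0.05 there were 3 (5.84% of all genes tested): Hsd17b4 at 0.43, Acsl3 at -0.35 and Etfb at -0.33. With TGFβ, 0 of 31 differed (0.0233% of all genes), the median was -0.05, and Crat at -0.74 and Acot13 at -0.39 had an unadjusted p under 0.05 (4.46%). Averaged over both treatments, 0 of 31 differed (0.0698%), and Acsl3, Etfb and Acot13 had an unadjusted p under 0.05 (6.23%). DESeq2, limma-voom and every other alternative setting also gave 0 members in these 3 comparisons.

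Acsl3, the synthetase found on lipid droplets, was at 67.9, 56.6 and 59.8 CPM in mock and 50.2, 48 and 46.8 CPM in Nnmt-OE, with no overlap. With TGFβ it was at 61.9, 68.4 and 66.5 CPM in mock and 51.6, 54.5 and 63.6 CPM in Nnmt-OE, which did overlap. The averaged difference by construct was -0.28 ± 0.10 (SE, adjusted p = 0.635). Etfb without TGFβ was at 127, 102 and 112 CPM in mock and 94.2, 87.3 and 90.7 CPM in Nnmt-OE, again with no overlap and an adjusted p of 0.813. Crat with TGFβ was at 12, 17.9 and 14.7 CPM in mock and 7.6, 9.35 and 9.8 CPM in Nnmt-OE, a 1.67-fold lower level whose 95% interval ran from -1.35 to -0.13 on the log2 scale (adjusted p = 0.998).

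The precision of these null results differed by gene. The 95% interval of a log2 fold change by construct without TGFβ reached 0.22 to either side of the estimate for the best measured member and 0.66 for the worst, with a median of 0.35. For Cpt1a the construct interval without TGFβ was -0.45 to 0.34, for Acaa2 -0.37 to 0.33 and for Acadl -0.14 to 0.30. Differences by construct within these intervals are not excluded at this depth and number of libraries.

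**Figure D4:**
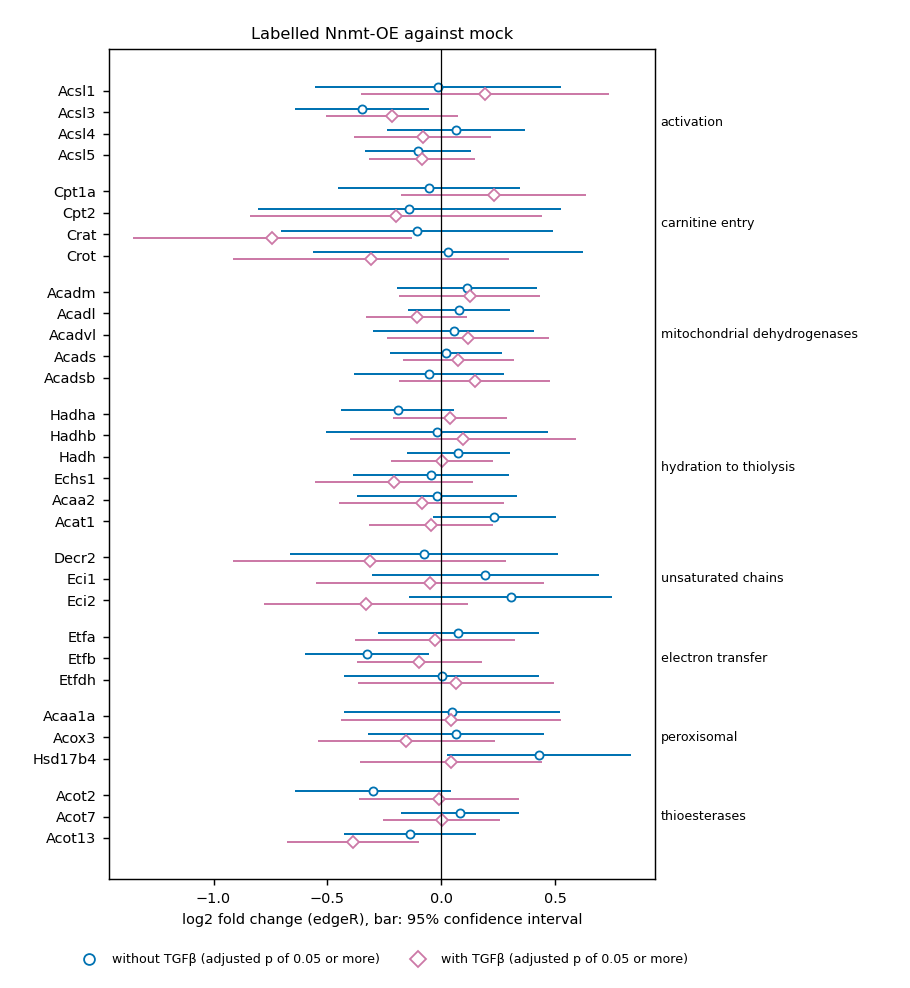
Labelled Nnmt-OE against mock for the 31 tested genes, without TGFβ (circles) and with TGFβ (diamonds), as edgeR log2 fold changes with 95% confidence intervals. All points are open because no adjusted p was under 0.05, and the farthest from 0 is Crat with TGFβ at -0.74.

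Among genes of the same pathway outside the 35, the coactivator gene Ppargc1a had the largest change that passed the test with TGFβ. Of 19 tested regulators of the PPAR, ERR and PGC-1 families, 1 fell with TGFβ averaged over both kinds of cell and 0 rose. Over all genes tested 2.6% fell and 2.48% rose. Of the 19, 14 were negative and 5 positive. Pparg, at low counts, went up from 2.07 ± 0.762 to 4.07 ± 0.74 CPM (SD, n = 6 each) and did not pass. Ppargc1a stood at 114, 178 and 152 CPM in mock and 114, 109 and 99.7 CPM in mock with TGFβ. It stood at 168, 159 and 196 CPM in Nnmt-OE and 99.8, 87.7 and 90.5 CPM in Nnmt-OE with TGFβ. The groups were apart in Nnmt-OE cells, while in mock cells replicate 1 was level with the first treated library. Its averaged change was -0.68 ± 0.09 (SE, adjusted p = 8.19e-07). It was -0.45 in mock (adjusted p = 0.052) and -0.91 in Nnmt-OE (adjusted p = 6.32e-06), and the interaction did not pass (adjusted p = 0.999). Ppara, the receptor it serves, had 0 to 10 reads a library and was not tested.

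Of 8 tested PPAR target genes outside the members, 1 rose and 1 fell, beside 2.48 and 2.6% of all genes tested. Plin2, a coat protein of lipid droplets, rose from 84.6 ± 11.3 to 113 ± 9.67 CPM (SD, n = 6 each), a change of 0.42 ± 0.09 (SE, adjusted p = 0.00222). Txnip, an inhibitor of thioredoxin and of glucose uptake, fell from 146 ± 15.2 to 95.9 ± 6.3 CPM (SD, n = 6 each), a change of -0.60 (adjusted p = 2.28e-06). Among 21 tested further acyl-CoA enzymes of the mitochondrion, 1 fell and 0 rose, beside 2.6 and 2.48% of all genes tested. That gene was Auh, a hydratase of leucine breakdown, which went from 38.5 ± 4.77 to 26.6 ± 3 CPM (SD, n = 6 each), a change of -0.54 (adjusted p = 0.00881). The 4 genes Ppargc1a, Plin2, Txnip and Auh passed in all 20 alternative settings of the averaged comparison.

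**Figure D5:**
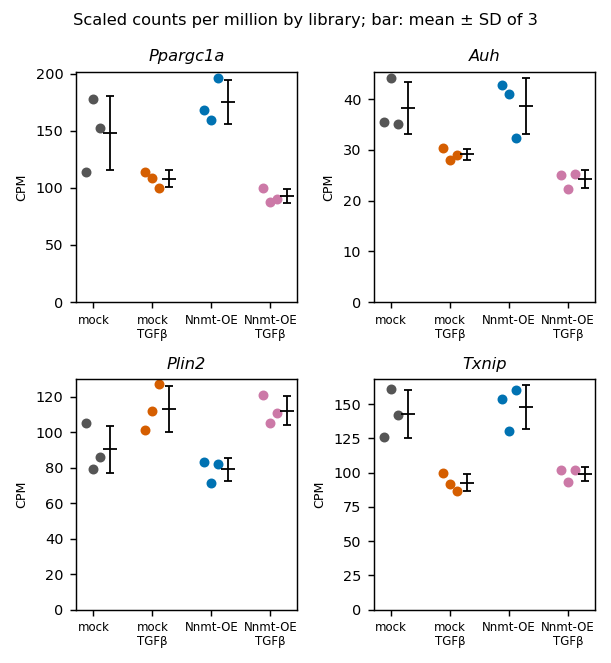
Levels of the coactivator gene Ppargc1a, the hydratase gene Auh, the lipid droplet gene Plin2 and Txnip in every library. The vertical axis of each panel is TMM-scaled CPM from 0, points are single libraries by group and bars are the mean ± SD of 3. The means of Ppargc1a, Auh and Txnip over 6 libraries were lower with TGFβ (100, 26.6 and 95.9 CPM against 161, 38.5 and 146 CPM) and that of Plin2 was higher (113 against 84.6 CPM).

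The other lists of fatty acid and pyruvate genes gave no averaged call. Of 9 tested genes for carnitine and fatty acid entry, Cpt1c had the lowest p at -0.36 (adjusted p = 0.0602) and the fatty acid binding protein gene Fabp5 the next at 0.53 (adjusted p = 0.331), while Cd36, Cpt1b and Fabp3 had 0 reads in all libraries. Of 27 other peroxisomal genes, the import receptor gene Pex7 was at -0.60 (adjusted p = 0.141). Of 13 genes for fatty acid synthesis, Acly was at 0.25 and Scd1 at -0.47 (adjusted p = 0.0632 and 0.0758). Of 5 other synthetases and thioesterases, Them4 was at -0.31 and Acot9 at 0.17. Of 12 genes of pyruvate dehydrogenase, its regulators and pyruvate entry, 1 passed in the Nnmt-OE comparison, where 1.4% of all genes tested passed. It was Mpc2, a subunit of the mitochondrial pyruvate carrier, at -0.52 (adjusted p = 0.0468). That call was lost without Nnmt-OE with TGFβ replicate 3 (-0.42, adjusted p = 0.3) and in 10 other settings. In mock cells Mpc2 was at -0.05 (adjusted p = 0.939), and the difference between the 2 kinds of cell did not pass the test (interaction -0.47, adjusted p = 0.999).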

How the data were processed

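Messenger RNA was measured in 12 libraries of im_TEC cells, 3 in each of 4 groups taken from their titles. The deposited table holds raw counts of reads per gene, not normalized. The submitters' processing notes name STAR and HTSeq without versions, and the human build GRCh38, although the gene identifiers are mouse. For the mouse build, annotation and strand, what was used is not given in the sources used here. The HTSeq totals of reads given to no gene (26.4 to 28.8% outside genes and 0.603 to 0.679% ambiguous) stayed out of library sizes and tests. Libraries held 4733846 to 7247413 reads, so that 3 reads are worth 0.414 to 0.634 CPM. Symbols were matched for 55141 of 55487 identifiers (99.4%).

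All 12 libraries entered 1 fit with a mean per group in edgeR 4.0.16 under R 4.3.3: filterByExpr (minimum count 10, minimum total 15; 42590 genes removed), TMM factors of 0.982 to 1.01, common dispersion 0.0331, glmQLFit with robust = TRUE and glmQLFTest, with p-values adjusted by Benjamini-Hochberg over 12897 genes and a threshold of 0.05. CPM are scaled by TMM. Comparisons were TGFβ against none and labelled Nnmt-OE against mock, each within the other factor and averaged over it, and their interaction. No library pair had identical counts. Alternatives were DESeq2 1.42.0, voom in limma 3.58.1, scaling by RLE or by totals alone, no filter or a stricter one (1 CPM in 3 libraries and 50 reads in total), a replicate block, each library left out, the 3 libraries that stand apart left out, and the groups compared only. The test was also run on simulated counts, and the outcome is not reported here.

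The members and lists were chosen with earlier results of these data known. Named genes were all members, Nnmt, the check genes of TGFβ and, from each list of other pathway genes, up to 4 called genes or else the 2 with the lowest p. Some genes that this rule covers are not reported here. Gapdh, Actb, Nbn and Osgin2 were added after values were seen. Promoters came from RefSeq (GRCm38.p6). Transcript ends were compared in GENCODE M21 with blastn 2.17.0 and Biopython 1.88, as matches of at least 95% over 100 bases. Those coordinates are not from the count table.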

Additional observations from a re-analysis of the deposited data

How the results depend on the processing

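In TGFβ against none in mock cells, 1 member passed. That count was 0 without the 3 libraries that stand apart and ranged from 0 to 1 when each library was left out. In TGFβ against none in Nnmt-OE cells, 0 passed, and 1 (Acat1) did with no filter on low counts (adjusted p = 0.0429) or with the groups compared only (adjusted p = 0.0263), with a range of 0 to 1 when each library was left out (Acat1 without mock with TGFβ replicate 3, adjusted p = 0.0494, and without Nnmt-OE replicate 3, adjusted p = 0.0468). The cause was not tested. The averaged TGFβ comparison gave 2 or 3 members in every alternative and the construct comparisons and the interaction 0. No called value of a named gene reversed. Over 8352 values of named genes under alternatives, 24 calls were lost and 28 gained, and 357 changed sign with no call in either fit. Counts over all genes moved by more than 1.5 times: TGFβ in mock from 184 to 306 with DESeq2, 92 with the groups compared only and 98 without mock with TGFβ replicate 2; TGFβ in Nnmt-OE from 180 to 295 with DESeq2 and 351 with the groups compared only, with 97 to 305 when a library was left out; the construct without TGFβ from 5 to 13 with no filter and 3 with the groups compared only, and 3 to 6 when a library was left out; the construct with TGFβ from 3 to a range of 1 to 3 when a library was left out; the averaged construct comparison from 9 to 26 with DESeq2 and 19 with no filter, and 5 to 9 when a library was left out.

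No pairing of the libraries by replicate number was seen. Over 18 pairs of libraries with the same number the correlation of deviations ran from -0.102 to 0.047. Over pairs with different numbers it ran from -0.066 to 0.086. Of the 12 libraries, 4 correlated best with their own number. With the replicate block, Acat1 was added to the averaged TGFβ calls (-0.30, adjusted p = 0.0343), which made 3, and no other member's call changed. Counts of 0 to 2 reads each limit what can be said of Decr1, Pdk4, Ehhadh and Acot1. Whether depth or the way reads were counted set these low counts was not tested.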
